A study of Mus musculus with 8 samples.

Results

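The mouse major histocompatibility complex, called H2, was examined here as the interval of chromosome 17 from 33.5 to 37.5 Mb (GRCm39), and its members are all H3ac peaks that lie in this interval. H3ac is acetylated histone H3, a chromatin mark of active promoters and enhancers. Peaks of the 4 library lists that overlapped by at least 1 bp were merged, which gave 496 H2 regions of 81544 regions in the whole series and left 3318 on the rest of chromosome 17. Among called peaks position alone chose the members, so no H3ac value beyond the call of a peak in at least 1 list was used to pick them.

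The cells were RAW 264.7, a mouse macrophage-like line that was derived from a BALB/c tumour induced by Abelson leukaemia virus. The labels name the treatments Gel and CuNZ@Gel. Each has 2 libraries from an immunoprecipitation against acetylated H3, called replicates 1 and 2, and the 4 input libraries were not analysed here. Pairs of values below stand in the order replicate 1, replicate 2. Exposure lasted 48 h per the labels' protocols. All samples share a protocol text that names extracts of CuNZ@Gel and none of Gel, so what Gel cells received is known from their treatment label alone. The series concerns a hydrogel with a nanozyme, made to be sprayed on diabetic wounds. Whether replicates 1 and 2 are separate cultures is not stated, so their spread, and each p-value that uses it, may be technical.

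H2 is one of the most gene-dense stretches of the mouse genome. Its class I genes (such as H2-K1 and H2-D1) encode molecules that show peptides from inside the cell to CD8 T cells. Its class II genes (such as H2-Aa, H2-Ab1 and H2-Eb1) encode the molecules with which macrophages and other antigen-presenting cells show captured peptides to CD4 T cells. Tap1, Tap2, Psmb8 and Psmb9 make and carry the peptides that class I molecules bind. The class III stretch holds genes of complement (C2, Cfb, C4a, C4b), heat shock proteins (Hspa1a, Hspa1b) and cytokines (Tnf, Lta, Ltb).

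The RefSeq gene table for GRCm38 (C57BL/6J) held 84 of 86 genes listed for H2, and only their order was used, because its coordinates are of another build than the peaks. In that order H2-K1 comes near one end, followed by the class II genes from H2-Oa to H2-Eb2 with Psmb9, Tap1, Psmb8 and Tap2 among them. The class III genes from Notch4 to Ddx39b follow, then H2-D1 and the Q genes of class I (H2-Q1 to H2-Q10). A stretch of other genes from Pou5f1 to Gnl1 comes next, and after it the T genes (H2-T24, H2-T23, H2-T22, H2-T3) and the M genes (H2-M5, H2-M3, H2-M2). No region below is tied to a gene, and the macrophage label could not be checked against marker genes. RAW 264.7 cells carry the d haplotype of H2, as BALB/c mice do, while the reference genome is of C57BL/6J, which carries the b haplotype. Both differ in class I gene content, and how reads from such genes were placed was not tested.

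The libraries differed in depth. The local background seen most often among the peaks, in stacked fragments, was 4.62 and 4.28 for Gel and 3.45 and 2.46 for CuNZ@Gel, so both CuNZ@Gel libraries were shallower. Over the whole genome the CuNZ@Gel lists held 62.8% of the Gel peak number and 56.6% of the Gel covered length. For this reason H2 was set against the rest of chromosome 17 at like Gel fold, where the same libraries and depths apply.

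H3ac covered less of H2 in CuNZ@Gel than in Gel. The Gel lists held 374 and 386 H2 peaks and the CuNZ@Gel lists 268 and 246. These are means of 380.0 ± 8.49 and 257 ± 15.6 peaks (SD, n = 2 each), so CuNZ@Gel had 67.6% of the Gel number. Both CuNZ@Gel libraries lay below both Gel libraries. Peaks covered 315 and 327 kb of the 4 Mb with Gel, against 212 and 180.3 kb with CuNZ@Gel. The means were 321 ± 8.32 and 196 ± 22.2 kb (SD, n = 2 each), or 8.03% and 4.90% of the interval, and CuNZ@Gel kept 61.1% of the Gel length. Both differences were larger than the spread between replicates, yet with 2 libraries a side no exact two-sided permutation test can go below p = 0.333, which both gave. With each list cut to the length of the shortest, the peak numbers no longer differed by more than this spread (232 and 248 in Gel, 232 and 246 in CuNZ@Gel; difference -1, exact permutation p = 1). Covered length still differed there by -83.4 kb, but the kept peaks have the widths called at unequal depth, so this length is not corrected for depth. A lower share of cells that carry the mark and less of it per cell cannot be told apart in bulk chromatin. The part of the lower depth of the CuNZ@Gel libraries in these differences was not tested.

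H2 took a larger share of the H3ac of chromosome 17 in CuNZ@Gel. The bases under H2 peaks were 16.1% and 16.2% of all covered bases of the chromosome with Gel, and 17.5% and 17.6% with CuNZ@Gel. The groups did not overlap, and the difference of 1.35 percentage points was larger than the spread between replicates (SD 0.0185 and 0.0603, n = 2), with an exact two-sided permutation p of 0.333, again the smallest possible. With lists of equal length the difference was 0.642 points. By number, H2 held 13.7% and 13.6% of the chromosome's peaks in Gel and 14.5% and 15.5% in CuNZ@Gel. In the Gel lists, H2 regions were stronger at the median than others on the chromosome. Whether this bears on the H2 share was not tested. Among regions that both Gel lists held, the mean Gel fold, the authors' enrichment over local background, had a median of 5.39 in H2 and 4.63 on the rest of chromosome 17, a difference that was not tested.

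Other stretches of the same size put these values in scale. The genome was tiled in windows of 4 Mb in step with H2, a description added after the values were seen. Of 291 windows with at least 50 kb covered in Gel, H2 ranked 8 by Gel covered length, and CuNZ@Gel kept 45.8% to 70.8% in the other windows, with a median of 56.2%. Ordered by the share kept, H2 with 61.1% ranked 48. On chromosome 17 it was 2 of 8 by both measures, and the other 7 windows kept 50.6% to 63.7%. The share kept in H2 thus lay within the range of the other windows.

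**Figure D1:**
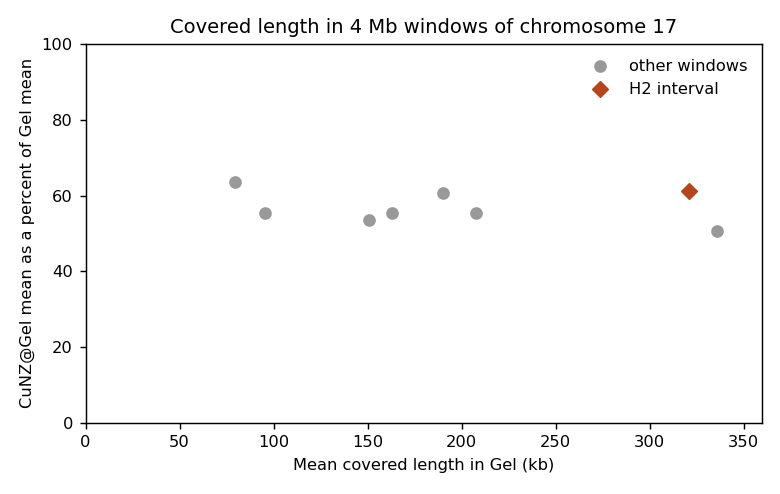
Mean covered length in Gel (x axis, kb) and the CuNZ@Gel mean as a percent of it (y axis) for the 8 windows of 4 Mb on chromosome 17 with at least 50 kb covered in Gel; each point is a window and the diamond is H2. H2, at 321 kb and 61.1%, lies within the 50.6% to 63.7% of the others.

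H3ac was gathered in a few stretches of H2. Of 80 windows of 50 kb, 52 held covered bases in all 4 libraries, and 5 held them in both Gel libraries and in no CuNZ@Gel library. In windows of 500 kb, the one from 35000000 to 35499999 held the most, with 101 and 106 kb under peaks for Gel and 69.7 and 58.9 kb for CuNZ@Gel. It was followed by the window from 34000000, with 68.5 and 70.9 kb for Gel and 48.9 and 43.5 kb for CuNZ@Gel, and the one from 36000000, with means of 58.7 ± 0.180 and 35.8 ± 5.13 kb (SD, n = 2). These 3 windows held 180 of the 259 H2 regions with peaks in both Gel libraries. The last 2 windows, from 36500000 on, held 11.2 ± 0.350 and 6.45 ± 0.890 kb in Gel and were the poorest. In all 8 windows both CuNZ@Gel libraries had less covered length than both Gel libraries. How often windows of 50 or 500 kb elsewhere show such patterns was not counted. Over the whole genome CuNZ@Gel covered 56.6% of the Gel length, so nothing particular to H2 is read from them.

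The share that CuNZ@Gel kept differed along the interval. It was highest in the window from 34500000, at 66.5%, and in the one from 34000000, at 66.3%. The 3 windows in which it was below 50% were the 3 with the least covered length in Gel, with 43.9% from 35500000, 45.0% from 36500000 and 49.1% from 37000000. The median Gel fold in those 3 was 4.03, 4.22 and 6.83, against 5.44 to 7.18 in the other 5. The differences between windows were not tested.

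**Figure D2:**
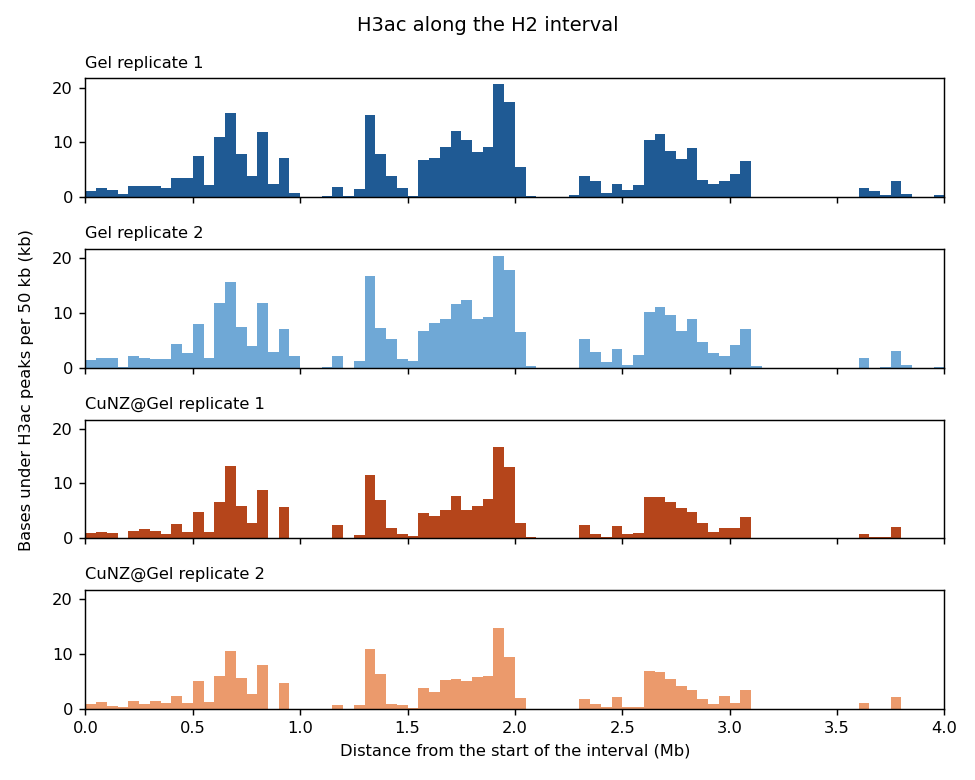
Bases under H3ac peaks per 50 kb (y axis, kb) along H2 (x axis, Mb from the start of the interval), 1 panel per library. Of the 80 bars per panel, 52 are filled in all 4 panels and 5 in both Gel panels only, and the CuNZ@Gel panels hold less over the stretches with 69.7, 103 and 58.7 kb covered in Gel.

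The 496 regions fell into classes by the lists they appeared in. A peak in all 4 libraries was found in 150 regions, or 30.2% of H2, against 25.6% of the rest of chromosome 17. Peaks in both Gel libraries and a single CuNZ@Gel library were found in 44 regions, 29 of them with replicate 1 and 15 with replicate 2, which was the shallower. Another 65 regions had peaks in both Gel libraries and in neither CuNZ@Gel library, while 2 had the opposite pattern. A single list alone held 209 regions, of which 76 came from Gel replicate 1, 100 from Gel replicate 2, 23 from CuNZ@Gel replicate 1 and 10 from CuNZ@Gel replicate 2. The remaining 26 regions had a peak in a single Gel library and in 1 or both CuNZ@Gel libraries. Shares in H2 and the genome were 8.87% and 9.35% for both Gel libraries with 1 CuNZ@Gel library. They were 13.1% and 12.0% for both Gel libraries alone, and 0.403% and 0.318% for both CuNZ@Gel libraries alone. A single Gel list alone held 35.5% and 37.9%, and a single CuNZ@Gel list 6.65% and 8.14%. A single Gel library with 1 CuNZ@Gel library had 4.64% and 4.62%, and with both 0.605% and 0.764%.

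Gel regions were missing from the CuNZ@Gel lists about as often in H2 as elsewhere. Of the 259 H2 regions that both Gel lists held, 25.1% had no CuNZ@Gel peak, against 24.9% of such regions in the genome and 28.3% on the rest of chromosome 17. Of the 155 H2 regions that both CuNZ@Gel lists held, 1.29% had no Gel peak, against 1.14% in the genome. These shares are close to the background of all regions. At like Gel fold the rest of chromosome 17 gave 25.6% in neither CuNZ@Gel library, so the H2 share minus that one was -0.529 points.

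The same held for each CuNZ@Gel library and at each strength. Chromosome 17 regions that both Gel lists held were split by mean Gel fold into 5 equal groups. In the weakest group, up to a fold of 3.41, replicate 1 had no peak in 77.8% of the H2 regions and in 75.3% of the others, and replicate 2 in 84.4% and 87.5%. In the middle group, between 4.14 and 5.73, the shares were 27.1% and 24.8% for replicate 1 and 37.5% and 40.3% for replicate 2. In the strongest group no H2 region was missing from either library. H2 held more of these strong regions, 24.3% of its 259 against 19.3% of the 1561 others. Weighted to the strengths in H2, the rest of the chromosome gave 29.8% without a peak in replicate 1 and 37.3% in replicate 2, where H2 had 30.9% and 36.3%. The difference was 0.0362 ± 1.46 percentage points (SD, n = 2 libraries), smaller than the spread between the CuNZ@Gel libraries.

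**Figure D3:**
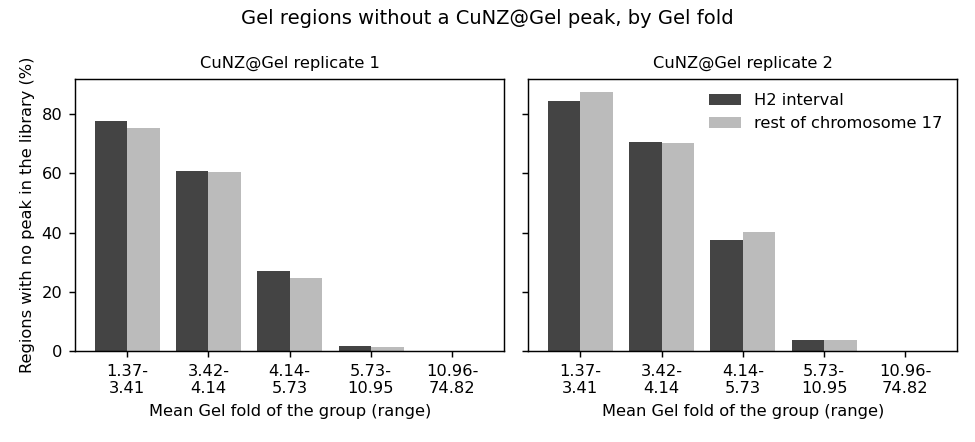
Percent of regions with peaks in both Gel libraries that had no peak in CuNZ@Gel replicate 1 (left) or 2 (right), in 5 groups of mean Gel fold (x axis, range of each group), for H2 (dark bars) and the rest of chromosome 17 (light bars). The bars of a pair are alike in each group, for example 77.8% and 75.3% in the weakest group for replicate 1, and are at 0 in the strongest.

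The 5 widest regions held by both Gel lists and by no CuNZ@Gel list ranged from weak to about the median Gel fold of H2. The first lay from 35446723 to 35448188, with 808 and 1466 bp under the Gel peaks and folds of 4.63 and 3.60. The next lay from 34321818 to 34322852, with 735 and 1035 bp and folds of 6.06 and 4.73. Summit fragments, the fragments stacked at the highest point of a peak, were 25 and 18 in the first region and 33 and 24 in the second. From 34902575 to 34903384 the widths were 656 and 810 bp, from 36572349 to 36573310 they were 484 and 962 bp at folds of 5.16 and 5.87, and from 35347347 to 35348226 they were 880.0 and 442 bp. The 65 regions had a median Gel fold of 3.46, against 3.44 for the 441 of this kind on the rest of chromosome 17. The median H2 peak of the Gel lists had 25.5 and 23 summit fragments. The region from 34321818 lay above this, and so did the one from 36572349, with 32 and 30 fragments. Where a list holds no peak, the deposited files give no value for the library, so a lack of peaks is not a measured absence of H3ac.

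Both regions with peaks in CuNZ@Gel only were small. They lay from 36374681 to 36374950, with 268 and 188 bp at folds of 3.60 and 3.47, and from 36439151 to 36439381, with 231 and 164 bp at folds of 3.82 and 4.52. Their summits held 15 and 11 fragments and 16 and 15 fragments. The median H2 peak had 22 and 18 fragments in those libraries, so both regions lay below it.

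Regions with a peak in all 4 libraries were narrower in CuNZ@Gel. The median covered width over the 150 regions was 1164 and 1208 bp for Gel and 858 and 824 bp for CuNZ@Gel. In 111 of them, or 74.0%, each CuNZ@Gel width was below each Gel width, against 74.5% of the 21909 such regions in the genome and 73.1% of the 851 on the rest of chromosome 17. The opposite order was found in 0 H2 regions, against 1.26% in the genome. The narrowing in H2 was therefore near the background in frequency.

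Its size was close to that of the rest of the chromosome. The median ratio of the covered width to the Gel mean was 0.770 in CuNZ@Gel replicate 1 and 0.707 in replicate 2. At like Gel fold the rest of chromosome 17 gave 0.772 and 0.701. The difference, 0.00223 ± 0.00596 (SD, n = 2 libraries), was smaller than the spread between the libraries. That no longer held with a score of at least 100 (0.0434 ± 0.0161), in a narrower interval (0.0142 ± 0.00264) or with 50% overlap needed to merge peaks (0.0117 ± 0.00768). Nor did it hold without Gel replicate 1 (0.00936 ± 0.000289) or without Gel replicate 2 (0.0274 ± 0.0163). In these settings H2 kept slightly more width (SD, n = 2 each). The ratio differed between groups of Gel fold, in no single order. In the strongest group the ratio in H2 was 0.847 and 0.779 for replicates 1 and 2 over 63 regions. The 301 others on the chromosome had 0.813 and 0.741. In the second strongest group H2 had 0.738 and 0.675 over 50 regions, and the 297 others 0.751 and 0.663. In the middle group H2 had 0.699 and 0.455 over 25 regions, and the 165 others 0.635 and 0.561. The gaps between H2 and the others thus differed in sign between groups. In the next weaker group, with folds from 3.42 to 4.14, H2 had 0.456 and 0.399 over only 9 regions, where the 69 others on the chromosome had 0.694 and 0.718. The weakest group held 3 H2 regions, at 0.626 and 0.612, and 19 others, at 0.685 and 0.843. These gaps were not tested. Peaks were also broken up more often: 20 and 14 of the 150 regions held more than 1 peak with Gel, and 38 and 40 did so with CuNZ@Gel. As shares these were 13.3% and 9.33% for Gel and 25.3% and 26.7% for CuNZ@Gel. In the genome they were 8.90% and 8.59% for Gel and 20.1% and 20.2% for CuNZ@Gel, each below the H2 share. The rest of chromosome 17 had 9.99% and 9.75% for Gel and 20.8% and 21.0% for CuNZ@Gel. Against that, H2 was lower in Gel replicate 2 and higher in the other libraries. These shares were not matched for width or Gel fold, and the differences were not tested.

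**Figure D4:**
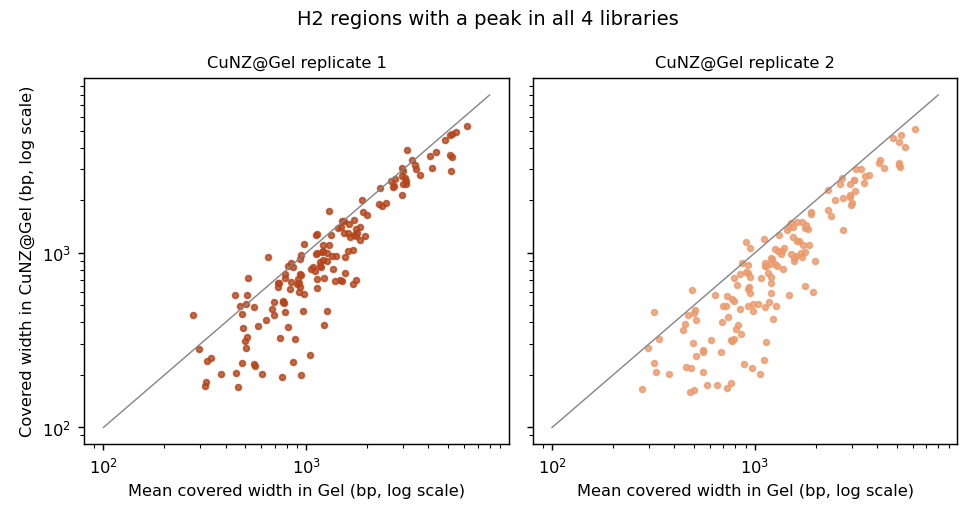
Covered width of each of the 150 H2 regions with a peak in all 4 libraries, in CuNZ@Gel replicate 1 (left) and 2 (right) on the y axis against the Gel mean on the x axis (bp, both log scales); the line marks equal widths. Below the line lie 130 regions for replicate 1 and 144 for replicate 2.

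The regions with the largest loss of width were broad ones in the window from 35000000. The first lay from 35266373 to 35271914, with 5052 and 5260 bp covered for Gel and 2938 and 3264 bp for CuNZ@Gel. Both CuNZ@Gel values lay well below both Gel values, and the region was held by 1 and 2 peaks in Gel but by 4 in each CuNZ@Gel library. In the region from 35217348 to 35222809 the widths were 5219 and 5199 bp against 3546 and 3116 bp. From 35459744 to 35464934 they were 5114 and 5157 bp against 3623 and 3186 bp. In both of these the Gel libraries lay close together and the CuNZ@Gel libraries far below them.

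Some narrower regions lost more in proportion. The region from 36329642 to 36331405 had 1764 and 1748 bp for Gel and 695 and 647 bp for CuNZ@Gel. From 34107856 to 34109598 the widths were 1698 and 1717 bp against 663 and 942 bp. In both, the CuNZ@Gel widths were far below the Gel widths. The remaining 5 of the 10 regions with the largest loss, from 34169002, 35825445, 34806666, 35412327 and 35405102, lost 911 to 1029 bp on average. The groups overlapped in none of them. All 10 were picked for a large loss, so nothing is read from this lack of overlap. Each CuNZ@Gel width was below each Gel width in 74.0% of the 150 shared H2 regions and in 74.5% of such regions in the genome.

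Where CuNZ@Gel was wider on average, the groups overlapped. The region from 35417041 to 35420955 had 3070 and 3227 bp for Gel and 3896 and 3037 bp for CuNZ@Gel. CuNZ@Gel replicate 2 was below both Gel libraries, so the mean gain of 318 bp rests on replicate 1 and turns to -112 bp without it. In the region from 34858311 to 34859772 the widths were 1224 and 998 bp against 1261 and 1198 bp, which also overlap. The other 3 of the 5 largest gains, from 36353819, 35527036 and 35421119, were 69, 51.5 and 28 bp. In all, 9 of the 150 regions were wider on average in CuNZ@Gel, or 6%, against 5.66% in the genome.

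The 10 strongest H2 regions were kept in every list. So was every region in the strongest of the 5 groups of Gel fold, both in H2 and on the rest of chromosome 17. The region from 36227864 to 36230867 had the highest Gel fold, 44.9 and 47.3, with 26.3 and 28.9 for CuNZ@Gel. Its covered width overlapped between groups, at 2646 and 2809 bp against 2659 and 2066 bp. The region from 35459744, also among those that lost most width, had folds of 42.7 and 43.3 in Gel and 21.2 and 27.2 in CuNZ@Gel. In neither region did the folds of the groups overlap.

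In 9 of the 10 strongest H2 regions each CuNZ@Gel fold was below each Gel fold, against 99.2% of the 726 regions in the genome that were at least as strong in Gel. All were picked for a high Gel fold, so nothing is read from the count. From 33978071 to 33979406 the folds were 43.1 and 43.0 in Gel and 32.8 and 25.7 in CuNZ@Gel, and from 34169002 to 34174597 they were 44.7 and 40.1 against 23.6 and 18.8. The region from 35481280 to 35484519 had the most fragments at its summit, 397 and 335 for Gel and 192 and 160 for CuNZ@Gel. Its folds were 43.8 and 40.0 against 28.6 and 32.3, with a local background of 8.09 and 7.41 fragments for Gel and 5.74 and 3.99 for CuNZ@Gel, above the usual level of each library. The regions from 34338541, 35308092, 35217348 and 33901936 had Gel folds from 29.3 to 44.0 and CuNZ@Gel folds from 15.0 to 34.0. The exception was the region from 34217736 to 34219263, with 34.7 and 23.9 in Gel and 30.3 and 25.7 in CuNZ@Gel, where the local background of Gel replicate 2 was 6.74 fragments against 4.62 in replicate 1.

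**Figure D5:**
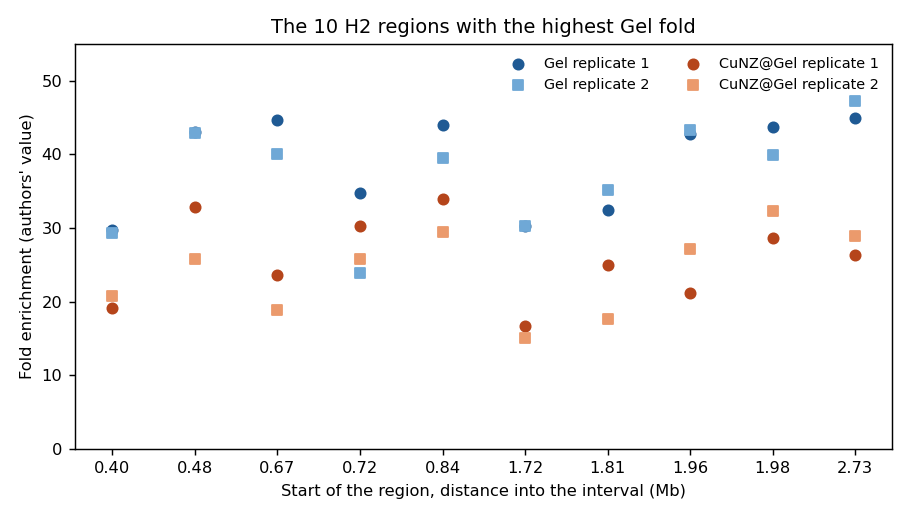
Fold enrichment as the authors' lists give it (y axis) for the 10 H2 regions with the highest mean Gel fold, ordered by their start (x axis, Mb into the interval); each point is a library. In 9 of the 10 regions both CuNZ@Gel points lie below both Gel points, and in the region with Gel folds of 34.7 and 23.9 they overlap.

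Over all 150 regions shared by the 4 lists, the median of the highest fold per region was 9.08 and 9.65 for Gel and 7.08 and 6.94 for CuNZ@Gel. In 102 of them, or 68.0%, each CuNZ@Gel fold was below each Gel fold, against 63.2% of such regions in the genome. Each was above in 6 regions, or 4%, against 4.55% in the genome. Folds of separately called lists of unequal depth are given as values and were not tested.

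These 6 regions, named after their values were seen, had moderate folds. The region from 34858311, also named above for its width, had 7.84 and 9.08 for Gel and 11.2 and 11.6 for CuNZ@Gel. Its summit held 43 and 47 fragments in Gel and 49 and 39 in CuNZ@Gel. These counts overlapped between groups, but they are not corrected for the depth of the libraries. From 35475439 to 35477281 the folds were 9.23 and 7.66 against 11.1 and 11.7, while the covered width went the other way, with 1711 and 1485 bp in Gel and 1030 and 953 bp in CuNZ@Gel. The other 4 lay from 34029494, 34219497, 34754272 and 36131413, with CuNZ@Gel folds between 4.05 and 9.59.

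In the main setting, which used all 4 kb bins and all 4 libraries, no single stretch of H2 passed the test of covered width. Several other settings called H2 bins lower, as given below. Bases under peaks in bins of 4 kb were compared with limma over the whole genome, with Benjamini-Hochberg adjustment over all 68188 bins. Of the 366 H2 bins, 0 were called lower and 0 higher by limma, and the genome likewise had 0% in either direction. The smallest limma adjusted p in H2 was 0.0757. At an unadjusted p under 0.05, 115 H2 bins were lower, or 31.4%, against 23.7% in the genome, and 1 was higher, or 0.273%, against 0.116%. H2 bins held more covered bases than others, and among bins with a mean width of at least 500 bp these shares for lower bins were 48.7% and 46.7%. In that smaller set limma called 39 of 156 H2 bins lower, or 25%, against 23.3% of 20393 bins in the genome. The count also turned on the libraries: over all bins limma called 73 H2 bins lower without Gel replicate 1, or 19.9% against 27.7% of all bins, and 69 without Gel replicate 2, or 18.9% against 25.4%.

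The H2 bin with the smallest p, from 35264001 to 35268000, lies in part on the region with the largest loss of width. It had 3111 and 3143 bp for Gel and 1160 and 1120 bp for CuNZ@Gel. The difference was -1987 ± 127 bp (SE), with a limma adjusted p of 0.0757. A second bin, from 34320001 to 34324000, had 1278 and 1226 bp in Gel and no covered base in CuNZ@Gel, a difference of -1252 ± 110.0 bp (SE) with the same adjusted p. In the second bin both CuNZ@Gel values are 0 because no peak was called, which is not a measured absence of H3ac. Its SE thus does not measure how H3ac varied between the CuNZ@Gel libraries. The widths of both bins are not corrected for the depth of the libraries, whose part in the differences was not tested.

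The ends of the interval were fixed by position. The first region inside, from 33508544 to 33509982, had folds of 7.66 and 6.71 in Gel and 5.17 and 5.21 in CuNZ@Gel, and the last one before it, from 33473309, had 7.20 and 9.08 against 5.88 and 5.50. The last region inside, from 37496427 to 37496793, had peaks in Gel only, with folds of 3.92 and 2.84. The first one after it, from 37511459, had a peak in CuNZ@Gel replicate 1 only, with a fold of 3.15.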

How the data were processed

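The authors deposited 4 peak lists, 1 per immunoprecipitated library, and 2 group lists, which were not used. The build is GRCm39, and MACS2 2.2.8, deepTools 3.5.6, SAMtools 1.17 and fastp are the tools named, per the submitters' processing notes. The aligner and the options of the peak caller were not given in these sources. Fixation took 10 min in 1% formaldehyde and fragments measured 150 to 350 bp, per the labels' protocols. The deposited fold is a ratio of summit to local background, taken here to have 1 added to each. The deposited −log10 p and −log10 q values accompany it, and their lowest values match a q of 0.05. The deposited score is 10 times the −log10 q as a whole number. Summit fragments and background were solved from the fold and p (relative tolerance 0.0001; checked on simulated peaks); no read totals were used. Position ranges are 1-based.

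A region's covered width in a library is the sum of its peaks there, and its fold is the highest among them. The limma step (limma 3.58.1, trend and robust, R 4.3.3; threshold 0.05) used 4 kb bins of the autosomes, X and Y, covered in at least 1 library and not alike in all 4, and was tested on simulated data. Counting error of single folds was not estimated.

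Named were the 10 regions with the highest Gel fold, the 10 largest losses and 5 largest gains of width among regions in all 4 lists, the 5 widest in both Gel and no CuNZ@Gel list, and all in CuNZ@Gel only. Promoter and gene assignment, planned for an annotation of GRCm39, was left out. Members and lists were chosen with earlier results of these data known.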

Additional observations from a re-analysis of the deposited data

How the results depend on the processing

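Peak number and covered length were lower, and the H2 share of chromosome 17 higher, in CuNZ@Gel under a score of at least 100, lists of equal length, a narrower interval (34000000 to 37000000) and without any 1 library, though equal length left -1 peak. The excess of uncalled regions stayed within 1 SD of its value in all settings run. The covered-width ratio difference was 0.0434 at the stricter score, 0.0142 in the narrower interval, 0.0117 with 50% overlap, and -0.0103 (without CuNZ@Gel replicate 1) to 0.0274 (without Gel replicate 2) when 1 library was left out; the cause was not tested. Called H2 bins were not stable: limma gave 22 lower with 10 kb bins (10.0% against 5.11% of all bins), 24 at the stricter score (12.6% against 14.7%) and 39 with a mean width of at least 500 bp (25% against 23.3%). Without 1 library it gave 0 to 73 lower and 0 to 1 higher; the lone library is then assumed to vary like the other group. Without Gel replicate 1 or 2 the count was 73 or 69, and without either CuNZ@Gel library 0. Under a replicate block limma called 84 lower (23% against 16.3% of all bins) and 0 higher, and the exact sign-flip p for peak number, length and share was 0.5, the smallest 2 pairs can give. Over all bins the deviations of libraries that share a number had a correlation of 0.00919, and over the 366 H2 bins of -0.0802. Neither value gives a sign of pairing. Of 174 values for the 29 named regions, in settings chosen after seeing the data, 5 changed sign, all in the regions from 35417041, 35527036 and 35421119, whose groups overlap (-112, -104, -551, -56.5 and -196 bp). Another 7 came to 0: 6 at the stricter score, among them 3 of the 5 Gel-only regions and both CuNZ@Gel-only regions, and 1 (from 35347347) with lists of equal length.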

Other observations

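Regions held by both Gel lists and by no CuNZ@Gel list lay close to regions with a peak in all 4 libraries. Of the 65 in H2, 46 (70.8%) were within 5 kb of one, with a median distance of 2.53 kb. On the rest of chromosome 17, 174 of 441 (39.5%) were that close, with a median of 8.74 kb. H2 also held shared regions more densely, and how far density alone gives such distances was not tested.

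H2 contains long stretches with no H3ac peak in any of the 4 libraries. The longest ran from 36601183 to 37133868, or 533 kb. The next ran from 35562594 to 35796605, or 234 kb, and the third from 37303597 to 37496426, or 193 kb. The median distance between neighbouring H2 regions was 2.07 kb.

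A local background of at least 2 times that of the library, in every list with a peak, was seen in 5 of the 496 H2 regions (1.01%) and in 6 of the 3318 others on the chromosome (0.181%). Of these 5, 2 lay in the window from 35500000, 2 in the window from 36500000 and 1 in the window from 35000000. The region from 35527036 to 35527946 is one with a high background, of 10.3 fragments in both Gel libraries and 7.54 and 5.71 in CuNZ@Gel replicates 1 and 2. These values and limits were chosen after the data were seen.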
